A study of Mus musculus with 16 samples.

Results

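The hnRNP and SR splicing factor genes are described here in mouse cerebral cortex after AAV, a viral carrier, had delivered a glycine-repeat construct. The members are all genes whose symbol starts with Hnrnp or Srsf, without the pseudogene rows, and that reach at least 10 counts in 4 libraries. They are 31 of 55359 genes listed and of 17737 tested, namely 20 hnRNP genes and 11 SR genes. All 31 passed the filter on low counts, and each had at least 232 counts in every library. The 3 pseudogene rows left out, Hnrnpa1l2-ps, Hnrnpa1l2-ps2 and Srsf3-ps, had at most 5 counts in any library.

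The study asked how the cortical transcriptome differs where polyglycine proteins are made, by bulk RNA sequencing of 16 cortex libraries, 4 for each construct. The name ATG-GGN100dCT gives 100 repeats of GGN, the general form of a glycine codon, behind an ATG start codon; the sources used here do not give the meaning of dCT. ATG-GGC100 carries ATG and 100 GGC repeats, TAG-GGC100 carries 100 GGC repeats with the stop codon TAG in the place of ATG in its name, and ATG-GGC11 carries ATG and 11 GGC repeats. All 4 groups received AAV, so no uninjected cortex was compared. The promoter of the constructs, the viral serotype, and the strain, age and sex of the mice are not given in those sources either. The labels do not say whether each library is its own animal; p-values therefore reflect the spread of these libraries alone, and that spread may be technical.

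Heterogeneous nuclear ribonucleoproteins (hnRNPs) coat newly made RNA in the nucleus, and many of them block the use of splice sites near their binding sites. SR proteins carry a domain rich in arginine and serine, bind exons and mostly promote their inclusion. Several genes of both families limit their own protein by splicing in an exon that exposes the transcript to nonsense-mediated decay. Some of these proteins have been reported to bind CGG repeat RNA, so TAG-GGC100, the long GGC repeat without ATG in its name, is the group of interest here. Counts per gene cannot separate the isoforms of a gene, and what is reported here is the total level only.

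Library totals ran from 12838756 to 19131210 counts. Each library's own construct was counted at 22.4 ± 11 CPM (counts scaled to library size) in ATG-GGN100dCT, 1.75 ± 0.564 in ATG-GGC100, 12.6 ± 1.95 in TAG-GGC100 and 51.6 ± 14 in ATG-GGC11 (SD, n = 4 each). All 4 construct sequences together took 0.000262% to 0.000543% of the counts in ATG-GGC100 and 0.00358% to 0.00714% in ATG-GGC11. In each ATG-GGC100 library, more of these counts fell on the other constructs than on its own. The own count is therefore only a part of the construct counts in that group, and the cause was not tested. The summed level of 8 neuron markers was alike, at 7860 to 8930 CPM in ATG-GGN100dCT, 7610 to 8030 in ATG-GGC100, 7790 to 8350 in TAG-GGC100 and 7760 to 8240 in ATG-GGC11. The 8 microglia markers summed to 367 to 551 CPM in ATG-GGN100dCT, 690 to 875 in ATG-GGC100, 390 to 444 in TAG-GGC100 and 396 to 498 in ATG-GGC11. The 6 activated microglia markers summed to 27.4 to 51.4, 75.8 to 93, 25.3 to 32.2 and 27.1 to 39.1 CPM in the same order of groups. The sum of 6 hepatocyte markers, of a cell type absent from cortex, was 31.5 to 36.8 CPM in ATG-GGN100dCT and at most 4.33 in ATG-GGC100, 10.1 in TAG-GGC100 and 5.4 in ATG-GGC11. Serpina1a and Fgb were at 0 in ATG-GGC100 and TAG-GGC100, and Fgb also in ATG-GGC11. The part of these markers in the results was not tested, and in bulk tissue fewer cells of a type and less RNA per cell cannot be told apart.

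4 members carry most of the differences described here: Hnrnpdl, Srsf7, Srsf10 and Srsf3. The 250 bases before their start sites, from RefSeq on the mouse build GRCm38.p6, are shown because these genes moved between the groups. Their windows also differ in the exact letters searched for below. The windows lie at chr5:100039223-100039472 on the minus strand for Hnrnpdl, chr17:80207306-80207555 on the minus strand for Srsf7, chr4:135855821-135856070 on the plus strand for Srsf10 and chr17:29032410-29032659 on the plus strand for Srsf3. Each is written 5′ to 3′ in the direction of its gene. Capitals mark matches on either strand to GGGCGG (the GC box), CCAAT (the CCAAT box), TATAAA (the TATA box) or GGCGGC (a pair of GGC units); GGGCGG and GGCGGC can overlap.
Hnrnpdl: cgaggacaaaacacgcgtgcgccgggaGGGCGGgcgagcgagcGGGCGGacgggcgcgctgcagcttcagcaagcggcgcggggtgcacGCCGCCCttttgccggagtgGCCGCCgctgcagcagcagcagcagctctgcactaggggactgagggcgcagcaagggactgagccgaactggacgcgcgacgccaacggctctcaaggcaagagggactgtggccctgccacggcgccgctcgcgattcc
Srsf7: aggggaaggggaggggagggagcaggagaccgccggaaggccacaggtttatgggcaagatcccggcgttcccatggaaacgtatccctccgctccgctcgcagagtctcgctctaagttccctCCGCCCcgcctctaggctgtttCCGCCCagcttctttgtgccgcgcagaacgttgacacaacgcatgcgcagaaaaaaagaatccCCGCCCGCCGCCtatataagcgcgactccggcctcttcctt
Srsf10: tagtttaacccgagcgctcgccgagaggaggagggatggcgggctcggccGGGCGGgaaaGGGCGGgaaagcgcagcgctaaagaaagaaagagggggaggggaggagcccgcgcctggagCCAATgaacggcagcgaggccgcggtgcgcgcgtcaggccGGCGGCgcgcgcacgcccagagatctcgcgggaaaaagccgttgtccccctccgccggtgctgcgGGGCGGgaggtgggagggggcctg
Srsf3: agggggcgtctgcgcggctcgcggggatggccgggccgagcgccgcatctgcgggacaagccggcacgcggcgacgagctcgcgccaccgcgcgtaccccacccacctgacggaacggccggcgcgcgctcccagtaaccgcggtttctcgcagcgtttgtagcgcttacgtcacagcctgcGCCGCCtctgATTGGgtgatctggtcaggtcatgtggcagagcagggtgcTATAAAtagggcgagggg
The Hnrnpdl, Srsf7 and Srsf10 windows each held 3 GC boxes, and the Srsf3 window held none. Of these 4 windows, Srsf3 alone held the exact letters TATAAA, whose first base lay at position -18 from the start. Variants of these letters were not searched for, such as the tatataag near the end of the Srsf7 window. A TATA-like element in Srsf7 is therefore not excluded. Srsf3 and Srsf10 each had a CCAAT box, at positions -58 and -129. Pairs of GGC units were found in all 4 windows, with 2 matches in Hnrnpdl and 1 in each of the others. TGACGTCA, the cAMP response element, and CACGTG, 1 form of the E-box, were not in these letters. Of the members, 29 matched the promoter table, with 41 entries because some genes have several starts. GGGCGG was present in 80.5% of these entries and in 32.7% of all 32851 promoters, GGCGGC in 51.2% and 18.5%, CCAAT in 48.8% and 33.8%, TATAAA in 7.32% and 12.4%, CACGTG in 7.32% and 6.02%, and TGACGTCA in 0% and 1.55%. The median GC content was 68% for the members' windows and 52.4% for all windows.

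The members were strongly expressed in cortex. Levels are in FPKM, which scales fragments by the exonic length listed for the gene and by library size. Ranks between genes therefore depend on that length. Hnrnpr is listed at 22199 bases and had 1452 to 2296 counts a library, and Srsf4 at 3561 bases had 232 to 424. The median member averaged 30.7 FPKM over the 16 libraries, against 3.91 FPKM for the median gene tested. All 31 members lay above that median, and 17 ranked in the top 10% of genes tested. Together they took 0.515% ± 0.0152 of the counts in ATG-GGN100dCT, 0.526% ± 0.0208 in ATG-GGC100, 0.524% ± 0.0218 in TAG-GGC100 and 0.51% ± 0.012 in ATG-GGC11 (SD, n = 4 each), and these shares overlapped between all groups.

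Among the A/B-type hnRNPs, Hnrnpa2b1, which carries mRNAs along neuronal processes, was the highest member of all, at a mean of 71.1 FPKM. Hnrnpa0, a single-exon relative, averaged 53.7, Hnrnpab 49.8 and Hnrnpdl, a relative of the mRNA decay factor Hnrnpd, 46.8 FPKM. Hnrnpa1, the classic repressor of exon inclusion, averaged 30.7, Hnrnpd 22.5 and Hnrnpa3 20.2 FPKM. The F/H-type hnRNPs bind runs of G: Hnrnph1 averaged 48.6, Hnrnph2 35.7, Hnrnph3 17.9 and Hnrnpf 13.5 FPKM. Hnrnpc, which binds runs of U, averaged 44.7 FPKM, and Hnrnpk, which binds runs of C, 39.1. Hnrnpl, which binds CA repeats, averaged 33.0, Hnrnpm 13.8 and Hnrnpll, known for switching exons of Ptprc in lymphocytes, 6.45 FPKM. Hnrnpu, a nuclear scaffold protein, averaged 49.1, its relatives Hnrnpul2 and Hnrnpul1 41.3 and 11.9, and Hnrnpr, which accompanies actin mRNA into axons, 5.14 FPKM, the lowest member.

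The SR genes spanned nearly the same range. Srsf5 averaged 67.9 FPKM, Srsf2 40.4, Srsf1 38.4, Srsf7 35.4 and Srsf6 30.2. Srsf1 and Srsf2 were among the first SR proteins described, and Srsf3 and Srsf7 also act in the export of mRNA from the nucleus. Srsf11 averaged 23.4, Srsf9 23.2, Srsf3 18.3 and Srsf10 12.9 FPKM. Srsf10 differs from the others in that it represses splicing when it is dephosphorylated. Srsf12 and Srsf4 were lowest, at 6.98 and 5.56 FPKM.

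**Figure D1:**
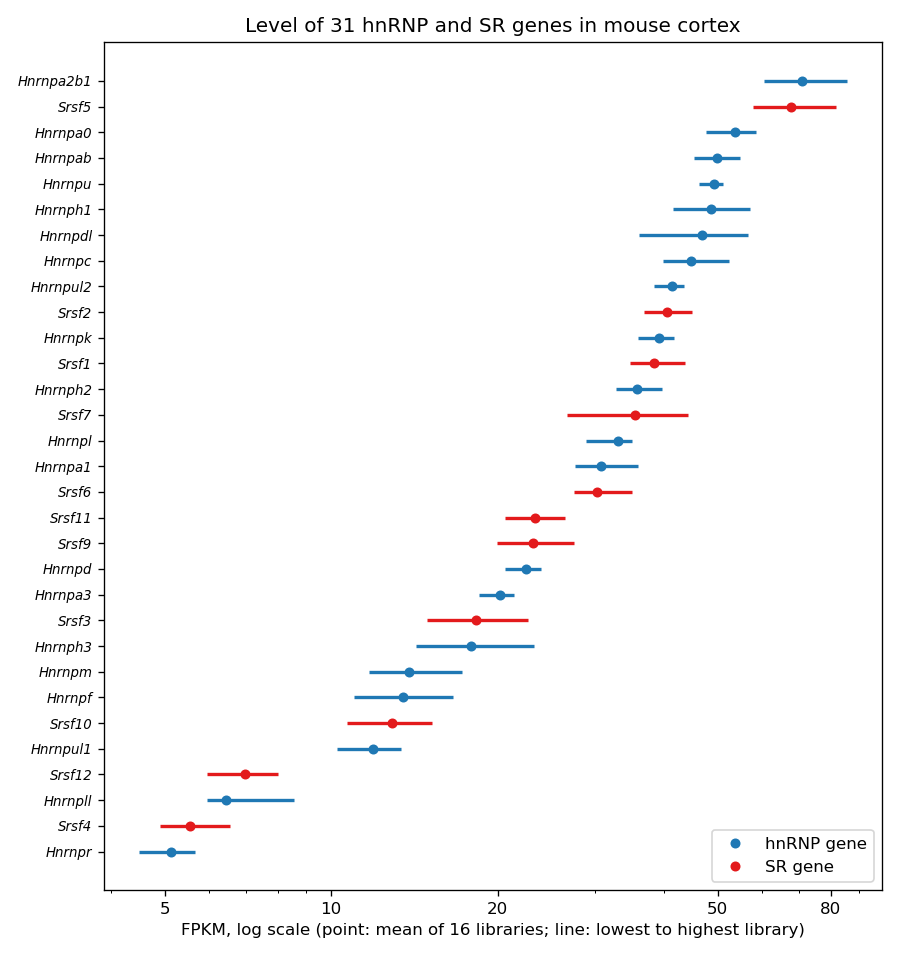
Level of each of the 31 members, with FPKM on a log axis; the point is the mean of 16 libraries and the line runs from the lowest to the highest library, blue for hnRNP and red for SR genes. Hnrnpa2b1 at 71.1 and Srsf5 at 67.9 FPKM lead, Hnrnpr at 5.14 is lowest, and the lines are widest for Srsf7, Hnrnph3 and Hnrnpdl.

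The spread over all 16 libraries was small. The highest library exceeded the lowest by 1.1 times for Hnrnpu and by 1.66 times for Srsf7, the extremes over the members; Hnrnph3 followed at 1.64 and Hnrnpdl at 1.57. In FPKM, TAG-GGC100 replicate 4 was the highest of the 16 libraries for 14 of the 31 members, among them Srsf3, Srsf7, Srsf10, Hnrnpa2b1 and Hnrnph3. ATG-GGN100dCT replicate 3 was the lowest for 10 members, among them the same 5. After TMM scaling the count was 8, without Hnrnph1 and Srsf10, which were then both lowest in ATG-GGC100 replicate 2. Results that rest on either library are therefore given without both as well. ATG-GGC100 replicate 3 was highest for 7 members in FPKM and for 5 after TMM scaling. Hnrnpll went another way, with 8.55 FPKM in ATG-GGN100dCT replicate 3 and at most 6.71 in any other library.

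**Figure D2:**
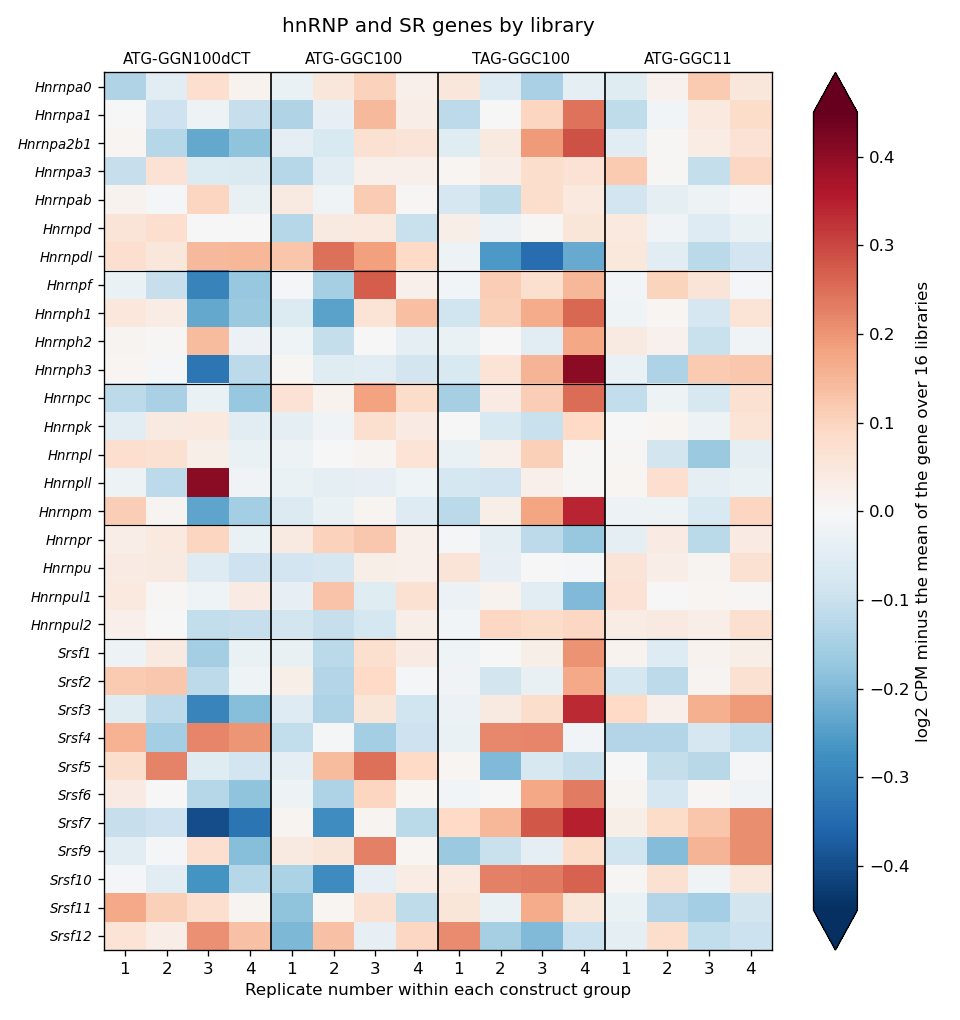
Deviation of each member (rows, grouped by family) from its own mean over the 16 libraries, in log2 CPM, for the 4 libraries of each construct (columns). Hnrnpdl is red in all ATG-GGN100dCT and ATG-GGC100 libraries and blue in TAG-GGC100, and Srsf3, Srsf7 and Srsf10 are all red in TAG-GGC100 replicates 2 to 4 and all blue in ATG-GGN100dCT.

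Members were called in both comparisons of an ATG construct with a long repeat against TAG-GGC100. Between ATG-GGC100 and TAG-GGC100, edgeR's quasi-likelihood test called 3 of 31 members (9.68%) at an adjusted p under 0.05, where 7.44% of all genes tested were called (4.05% higher and 3.39% lower). This count is near the share of all genes. Hnrnpdl was higher in ATG-GGC100, and Srsf7 and Srsf10 were lower. Between ATG-GGN100dCT and TAG-GGC100, 5 of 31 members (16.1%) were called, against 8.69% of all genes (4.3% higher and 4.4% lower). Whether this count exceeds that share was not tested, and it depended on the fit, as given below. Hnrnpdl was higher in ATG-GGN100dCT, and Srsf7, Srsf10, Srsf3 and Hnrnpa2b1 were lower. Both comparisons use the same 4 TAG-GGC100 libraries, so their results are not independent. The median log2 fold change of the members was -0.05 in the first comparison and 0.01 in the second, against 0 and 0.01 for all genes. With library totals in place of TMM as scaling, 5 members were called in the first comparison (3 higher, with Hnrnpr and Srsf5 added, and 2 lower) and 3 in the second (1 higher and 2 lower, against 1 higher and 4 lower with TMM). That scaling moved the share of higher calls among all genes to 70.1% in the first comparison and 65.7% in the second, against 54.5% and 49.4% with TMM. Of the cell type markers, 7 of 8 for microglia, 6 of 6 for activated microglia and 0 of 8 for neurons were called higher in ATG-GGC100, and 0 of 8, 4 of 6 and 0 of 8 in ATG-GGN100dCT. In ATG-GGC100, 4 of 5 meningeal fibroblast and 2 of 8 astrocyte markers were also called higher and 1 of 5 endothelium markers lower; in ATG-GGN100dCT, 4 of 5 hepatocyte markers tested were called higher, and 1 of 8 astrocyte markers was higher and 1 lower. The 5 meningeal fibroblast markers summed to 32.6 to 74.7 CPM in ATG-GGN100dCT, 56.1 to 120 in ATG-GGC100, 34.5 to 48.9 in TAG-GGC100 and 21 to 58.8 in ATG-GGC11. The part of these markers in the members' differences was not tested.

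Hnrnpdl, on chromosome 5 at 100181436 to 100187523 in the coordinates of the deposited table (which names no build, as for all gene coordinates below), had 49.4, 48.6, 51.6 and 53.3 FPKM in ATG-GGN100dCT replicates 1 to 4 and 50.7, 56.6, 53.6 and 50.2 FPKM in ATG-GGC100. It had 45.4, 38.2, 36.0 and 39.2 FPKM in TAG-GGC100 and 46.7, 44.4, 42.0 and 43.4 FPKM in ATG-GGC11. Every library of the long ATG constructs was above every library of the other groups, and TAG-GGC100 replicate 1 stood with ATG-GGC11. The group means were 50.7 ± 2.12, 52.8 ± 2.96, 39.7 ± 4.03 and 44.1 ± 1.96 FPKM (SD, n = 4 each). Against TAG-GGC100, the level was 1.29-fold higher in ATG-GGC100 (log2 fold change 0.37 ± 0.07 SE, edgeR adjusted p = 0.002) and 1.24-fold higher in ATG-GGN100dCT (0.31 ± 0.07, adjusted p = 0.00915). The call for ATG-GGC100 held in all 26 alternative fits, with adjusted p up to 0.0124 where a single library was left out and up to 0.00982 in the others. The call for ATG-GGN100dCT held in each fit except the one without both TAG-GGC100 replicate 4 and ATG-GGN100dCT replicate 3 (0.29, adjusted p = 0.0632; range over the other settings and this one 0.000416 to 0.0632).

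Hnrnpd, the close relative of Hnrnpdl, lies 54638 bases away on the same strand of chromosome 5. It averaged 23.4 ± 0.57 FPKM in ATG-GGN100dCT, 22.3 ± 1.57 in ATG-GGC100, 22.5 ± 0.595 in TAG-GGC100 and 22 ± 0.531 in ATG-GGC11. Its log2 fold change against TAG-GGC100 was -0.05 in ATG-GGC100 (95% interval -0.16 to 0.06) and 0.02 in ATG-GGN100dCT (-0.10 to 0.13). These intervals lie below those of Hnrnpdl, 0.23 to 0.51 and 0.17 to 0.45; the difference between the genes itself was not tested.

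Srsf7, on chromosome 17 at 80507509 to 80514736, moved the other way. It had 32.9, 33.2, 26.7 and 28.9 FPKM in ATG-GGN100dCT and 35.4, 29.6, 35.9 and 32.8 FPKM in ATG-GGC100. It had 37.0, 38.3, 41.9 and 44.2 FPKM in TAG-GGC100 and 34.8, 36.7, 37.6 and 40.2 FPKM in ATG-GGC11. All TAG-GGC100 libraries were above all libraries of both long ATG constructs, and in FPKM the ATG-GGC11 libraries overlapped with TAG-GGC100 and with ATG-GGC100. After TMM scaling ATG-GGC11 did not overlap with ATG-GGC100. Against TAG-GGC100, Srsf7 fell by 0.45 on the log2 scale in ATG-GGN100dCT (SE 0.08, adjusted p = 0.00434), a call that held in all 26 alternative fits, and by 0.31 in ATG-GGC100 (SE 0.08, adjusted p = 0.0261). The ATG-GGC100 call was lost without ATG-GGC100 replicate 2 (adjusted p = 0.0897), TAG-GGC100 replicate 3 (0.0657) or TAG-GGC100 replicate 4 (0.0702), with a range of 0.0154 to 0.0897 over single libraries left out. It was also lost with limma on log2 FPKM (0.0617 and 0.0624; range over settings 0.00699 to 0.0624).

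Srsf10, on chromosome 4 at 135583058 to 135597219, followed the same order of groups. It had 12.9, 12.5, 10.7 and 12.1 FPKM in ATG-GGN100dCT and 11.6, 10.8, 12.7 and 13.4 FPKM in ATG-GGC100. It had 13.1, 14.8, 14.9 and 15.2 FPKM in TAG-GGC100 and 12.5, 13.3, 12.5 and 13.2 FPKM in ATG-GGC11. The ATG-GGN100dCT libraries were all below those of TAG-GGC100, while ATG-GGC100 replicate 4 was above TAG-GGC100 replicate 1 in FPKM; after TMM scaling these groups did not overlap. Srsf10 fell by 0.31 on the log2 scale in ATG-GGN100dCT (SE 0.07, adjusted p = 0.0157) and by 0.3 in ATG-GGC100 (SE 0.07, adjusted p = 0.018) against TAG-GGC100. The ATG-GGC100 call was lost without ATG-GGC100 replicate 2 (adjusted p = 0.068) or TAG-GGC100 replicate 2 (0.0602; range 0.0093 to 0.068), and with limma on log2(FPKM + 0.1) (0.0502; range over settings 0.00344 to 0.0502). The ATG-GGN100dCT call came to 0.05 without ATG-GGN100dCT replicate 3, 0.0508 without its replicate 4, 0.0516 without TAG-GGC100 replicate 4 (range 0.00893 to 0.0516) and 0.118 without both TAG-GGC100 replicate 4 and ATG-GGN100dCT replicate 3.

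Srsf3, the smallest SR protein, lies on chromosome 17 at 29251602 to 29262347. It had 17.7, 17.0, 14.9 and 16.5 FPKM in ATG-GGN100dCT and 17.5, 17.0, 19.2 and 17.4 FPKM in ATG-GGC100. It had 17.8, 18.5, 18.9 and 22.7 FPKM in TAG-GGC100 and 18.9, 18.4, 20.1 and 20.7 FPKM in ATG-GGC11. The ATG-GGN100dCT libraries were below all TAG-GGC100 and ATG-GGC11 libraries, the nearest pair being 17.71 and 17.77 FPKM. Against TAG-GGC100, Srsf3 fell by 0.28 on the log2 scale in ATG-GGN100dCT (SE 0.08, adjusted p = 0.0297); in ATG-GGC100 the log2 fold change was -0.17 (SE 0.08, adjusted p = 0.179). The ATG-GGN100dCT call was lost without ATG-GGN100dCT replicate 3 (adjusted p = 0.0857), its replicate 4 (0.0806) or TAG-GGC100 replicate 4 (0.105; range 0.0196 to 0.105). It was also lost with library totals (0.057), limma at either pseudocount (0.0756 and 0.0748) and a fit of the 8 libraries compared (0.0869; range over settings 0.0102 to 0.23). Without both ATG-GGN100dCT replicate 3 and TAG-GGC100 replicate 4, the log2 fold change was -0.15 with an adjusted p of 0.23.

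Hnrnpa2b1, on chromosome 6 at 51437912 to 51446874, had 72.0, 65.5, 60.6 and 64.7 FPKM in ATG-GGN100dCT and 69.0, 69.3, 75.6 and 74.9 FPKM in ATG-GGC100. It had 67.8, 71.7, 79.6 and 85.5 FPKM in TAG-GGC100 and 66.7, 70.3, 71.4 and 73.5 FPKM in ATG-GGC11. The groups overlapped, and TAG-GGC100 replicates 3 and 4 stood above all other libraries. Hnrnpa2b1 fell by 0.25 on the log2 scale in ATG-GGN100dCT against TAG-GGC100 (SE 0.07, adjusted p = 0.034). This call was lost without ATG-GGN100dCT replicate 3 (adjusted p = 0.0911), its replicate 4 (0.0963), TAG-GGC100 replicate 3 (0.0738) or TAG-GGC100 replicate 4 (0.118; range 0.015 to 0.118), and without both of the libraries at the extremes the log2 fold change was -0.16 (adjusted p = 0.235). It was also lost with library totals (0.0673), limma at either pseudocount (0.0825 and 0.0817), a fit of the 8 libraries compared (0.107) and the replicate number as a block (0.0549; range over settings 0.0106 to 0.235).

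**Figure D3:**
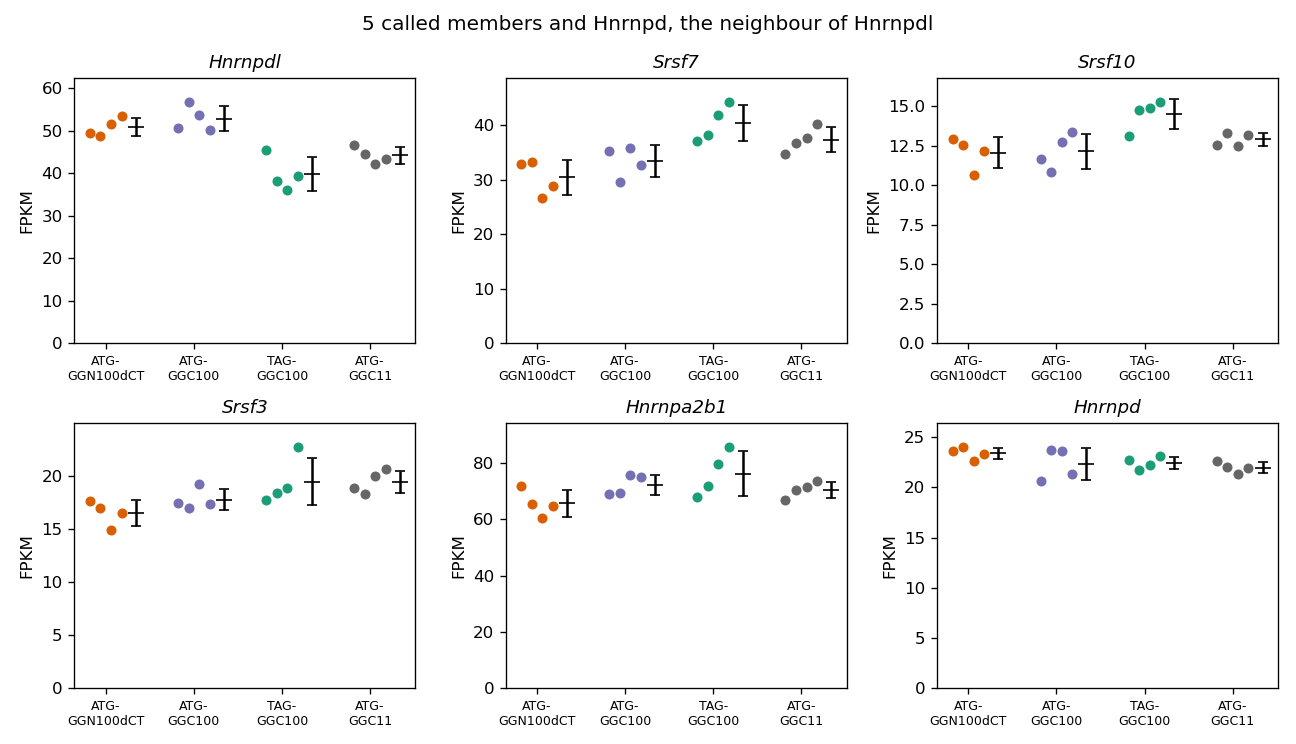
FPKM of the 5 called members and of Hnrnpd in every library; each point is a library, the bar is the group mean with 1 SD, and the vertical axes start at 0. Hnrnpdl is lowest in TAG-GGC100 at a mean of 39.7 FPKM, Srsf7 and Srsf10 are highest there at 40.3 and 14.5, and Hnrnpd has group means of 22 to 23.4.

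The remaining members were not called in either comparison with TAG-GGC100. Among the F/H-type hnRNPs, Hnrnph3 had a log2 fold change of -0.25 (adjusted p = 0.0869) and Hnrnpf of -0.23 (0.0828) in ATG-GGN100dCT. Reads of Hnrnph3 are uncertain, because it overlaps Rufy2 on the other strand by 2547 bases and the library protocol names no strand-marking step. Hnrnpc was at -0.18 (adjusted p = 0.114) and Srsf6 at -0.17 (0.136) in the same comparison. In ATG-GGC100, Srsf5 was at 0.20 (adjusted p = 0.0976) and Hnrnpr at 0.16 (0.101), and these were the only further members that were called with library totals as scaling. None of the 5 called members overlaps another gene in the table; 16 members do, 12 of them on the opposite strand, and for 4 of these (Hnrnpab, Hnrnph3, Hnrnpk and Srsf2) the partner averaged at least 100 counts.

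**Figure D4:**
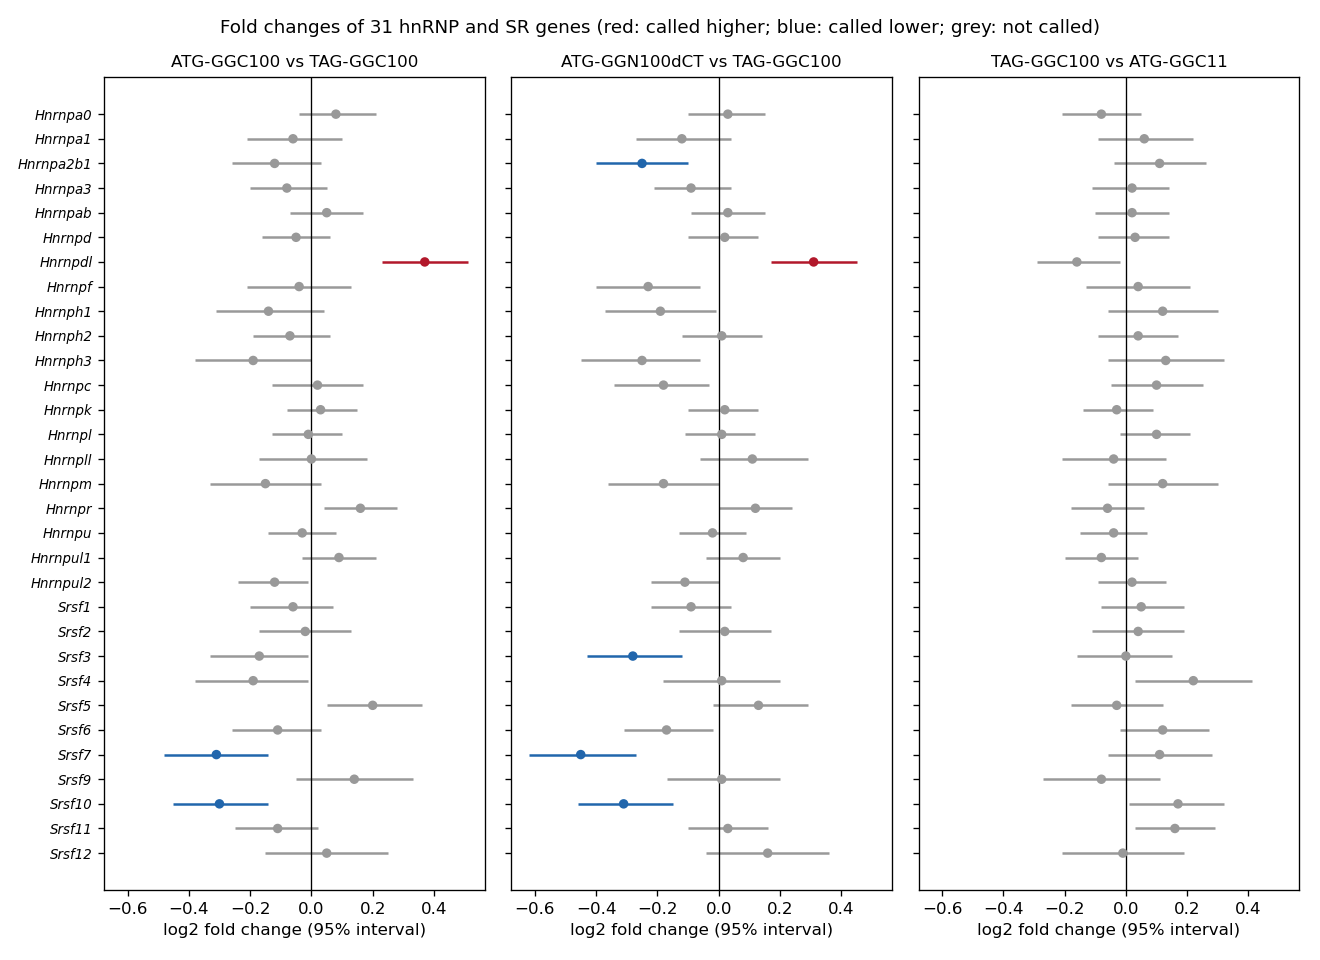
Log2 fold change of each member with its 95% interval in 3 comparisons; red is called higher, blue called lower and grey not called. Hnrnpdl lies at 0.37 and 0.31 against TAG-GGC100 and Srsf7 at -0.31 and -0.45, while all 31 members are grey in TAG-GGC100 against ATG-GGC11.

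TAG-GGC100 was then set against ATG-GGC11, the short repeat. No member was called by edgeR, limma or DESeq2, and 0.00564% of all genes tested were. At an unadjusted p under 0.05 there were 4 of 31 members, against 6.87% of all genes, and the smallest adjusted p was 0.578. The 95% intervals of all 31 log2 fold changes lay between -0.29 and 0.41, which bounds what these libraries allow but does not show that the levels are equal. The 2 members with the lowest p, Srsf11 and Srsf4, both encode SR proteins. Srsf11 had 24.1, 22.5, 25.8 and 23.9 FPKM in TAG-GGC100 and 22.2, 21.1, 20.7 and 21.8 FPKM in ATG-GGC11, with no overlap in FPKM, though the groups overlapped after TMM scaling (log2 fold change 0.16 ± 0.06 SE, adjusted p = 0.578). Srsf4 had 5.38, 6.32, 6.34 and 5.41 FPKM in TAG-GGC100 and 4.90, 4.99, 5.16 and 5.07 FPKM in ATG-GGC11, with no overlap on either scale (0.22 ± 0.09, adjusted p = 0.638). Reads of Srsf4, which averaged 319 counts, are uncertain as well. Its locus overlaps A930004J17Rik on the same strand by 4610 bases (mean 85.7 counts) and Gm12992 on the other strand by 2229 (mean 49.1). Hnrnpdl was at -0.16 (adjusted p = 0.652), Srsf10 at 0.17 (0.681), Srsf7 at 0.11 (0.892) and Hnrnpa2b1 at 0.11 (0.852).

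Against the mean of the other 3 groups, TAG-GGC100 had 3 called members (9.68%), where 3.06% of all genes were called (1.73% higher and 1.32% lower; the share of higher calls was 56.6%, and 42.4% with library totals). Hnrnpdl was lower in TAG-GGC100 (log2 fold change -0.28 ± 0.06 SE, adjusted p = 0.013), and Srsf7 (0.29 ± 0.07, adjusted p = 0.0244) and Srsf10 (0.26 ± 0.06, adjusted p = 0.0244) were higher. The TAG-GGC100 libraries overlapped with the others for all 3 genes. This contrast averages the comparisons above and shares their libraries, and in it ATG-GGC11 lay nearer to TAG-GGC100 than the long ATG constructs did. No member was called without TAG-GGC100 replicate 2 or replicate 4, and Hnrnpdl alone was called without replicate 3. Without replicate 2 the adjusted p was 0.0892 for Hnrnpdl, 0.0892 for Srsf7 and 0.123 for Srsf10, without replicate 4 it was 0.0593, 0.108 and 0.0974, and without replicate 3 it was 0.0715 for Srsf7 and 0.0694 for Srsf10. Over all single libraries left out, the adjusted p ran from 0.00204 to 0.0892 for Hnrnpdl, from 0.0134 to 0.108 for Srsf7 and from 0.0133 to 0.123 for Srsf10.

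The constructs with ATG and a long repeat were also compared with ATG-GGC11. In ATG-GGN100dCT, 2 of 31 members (6.45%) were called lower and none higher, against 6.66% of all genes called (3.17% higher and 3.49% lower). These were Srsf7 (log2 fold change -0.34 ± 0.08 SE, adjusted p = 0.0205) and Srsf3 (-0.28 ± 0.08, adjusted p = 0.0329), and neither overlapped between the groups. With library totals or with limma, Srsf7 was called lower and Srsf11 higher, and Srsf3 was not called (adjusted p = 0.0605, 0.0768 and 0.0766); the share of higher calls among all genes was then 67.1% with library totals, against 47.6% with TMM. Both calls were lost without ATG-GGN100dCT replicate 3 (adjusted p = 0.063 for Srsf7 and 0.0935 for Srsf3), ATG-GGN100dCT replicate 4 (0.0737 and 0.0871) or ATG-GGC11 replicate 4 (0.0618 and 0.0863). The Srsf3 call was also lost without ATG-GGC11 replicate 1 (0.0527) or replicate 3 (0.0753). In this comparison 4 of 8 astrocyte, 2 of 5 red blood cell and 1 of 4 oligodendrocyte precursor markers were called lower, and 4 of 5 hepatocyte markers tested, 3 of 6 activated microglia and 1 of 8 astrocyte markers higher; their part was not tested. The ranges over single libraries left out were 0.00798 to 0.0737 for Srsf7 and 0.0137 to 0.0935 for Srsf3.

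In ATG-GGC100 against ATG-GGC11, edgeR called no member, and 3.5% of all genes tested were called (2.2% higher and 1.3% lower; the share of higher calls was 62.8%, and 74.8% with library totals). At an unadjusted p under 0.05 there were 4 of 31 members and 16.7% of all genes. Hnrnpdl came nearest, 1.16-fold higher with no overlap between the libraries given above (log2 fold change 0.21 ± 0.07 SE, adjusted p = 0.0828). DESeq2 called it (adjusted p = 0.0387), as did limma on log2 FPKM (0.0446 and 0.0458), a fit of the 8 libraries compared (0.049) and library totals as scaling (0.0364); the range over settings was 0.0364 to 0.114. Srsf7 followed at -0.20 ± 0.08 (adjusted p = 0.207). Here 6 of 8 microglia, 6 of 6 activated microglia, 2 of 5 meningeal fibroblast and 1 of 8 astrocyte markers were called higher; their part was not tested.

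Between ATG-GGN100dCT and ATG-GGC100 no member was called by edgeR, limma or DESeq2, where 2.05% of all genes tested were called by edgeR (0.857% higher and 1.19% lower). At an unadjusted p under 0.05 there were 4 of 31 members and 16.6% of all genes. Of the cell type markers, 7 of 8 for microglia, 6 of 6 for activated microglia and 4 of 8 for astrocytes were called lower. The same held for 1 of 4 oligodendrocyte precursor markers, while 4 of 5 hepatocyte markers tested were called higher. The part of these markers was not tested. Hnrnpc had 41.4, 40.7, 43.8 and 40.9 FPKM in ATG-GGN100dCT and 46.6, 46.1, 51.2 and 47.9 FPKM in ATG-GGC100, with no overlap (log2 fold change -0.20 ± 0.07 SE, adjusted p = 0.158). Hnrnpf had 13.3, 12.7, 11 and 12.4 FPKM in ATG-GGN100dCT and 13.4, 12.5, 16.6 and 13.9 FPKM in ATG-GGC100, with overlap (-0.19 ± 0.08, adjusted p = 0.234). Hnrnpdl was at -0.06 with a 95% interval of -0.19 to 0.08, and Srsf10 at -0.01 with an interval of -0.16 to 0.14.

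A last contrast asked whether the 2 groups with 100 GGC repeats, ATG-GGC100 and TAG-GGC100, differed together from ATG-GGC11 and ATG-GGN100dCT. No member was called by edgeR, limma or DESeq2, and 0.0226% of all genes were called by edgeR (0.00564% higher and 0.0169% lower); 3 of 31 members had an unadjusted p under 0.05, against 9.25% of all genes. Hnrnpc (log2 fold change 0.15 ± 0.05 SE, adjusted p = 0.361) and Hnrnpa2b1 (0.12 ± 0.05, adjusted p = 0.471) had the lowest p, and the intervals of all members lay between -0.20 and 0.26. In the groups with and without the long GGC repeat, Hnrnpc overlapped, with 39.8, 44.9, 47.4 and 52.4 FPKM in TAG-GGC100 and 40.1, 43.4, 41.7 and 46.3 FPKM in ATG-GGC11 beside the values above.

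10 genes whose proteins have been reported to bind CGG repeat RNA were read beside the members. None was called in TAG-GGC100 against ATG-GGC11, or in ATG-GGC100 against ATG-GGC11 or TAG-GGC100. Of all genes tested, 0.00564%, 3.5% and 7.44% were called in these comparisons, so no call among 10 genes is near those shares. In ATG-GGN100dCT, 8.69% of all genes were called against TAG-GGC100 and 6.66% against ATG-GGC11. Hnrnpa2b1 was the only gene of this list called against TAG-GGC100 in ATG-GGN100dCT, and Khdrbs1, which encodes SAM68, the only gene called against ATG-GGC11 there (log2 fold change -0.20 ± 0.06 SE, adjusted p = 0.0491, lost in 21 of 26 alternative fits with a range of 0.00621 to 0.136, and in each of the fits that left out 1 ATG-GGC11 library, up to 0.102). In TAG-GGC100 against ATG-GGC11, Dgcr8 was at 0.17 (adjusted p = 0.769) and Drosha at 0.04 (0.973), the partners that cut microRNA precursors. In the same comparison Pura was at 0.00 (0.999), Purb at -0.07 (0.917), Mbnl1 at 0.02 (0.993), Celf1 at 0.08 (0.906) and Tra2a at 0.18 (0.914).

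Genes that act with the members were counted as well. Of all genes tested, 3.39% were called lower in ATG-GGC100 against TAG-GGC100 and 4.4% in ATG-GGN100dCT against TAG-GGC100. A single call in either list below is near these shares. Among 14 kinases and transport factors of SR proteins, Srpk1, which phosphorylates SR proteins, was the only call, lower against TAG-GGC100 in ATG-GGN100dCT (log2 fold change -0.32 ± 0.08 SE, adjusted p = 0.0255) and in ATG-GGC100 (-0.28 ± 0.08, adjusted p = 0.0439). Srpk1 averaged 5.81 ± 0.745 FPKM in ATG-GGN100dCT, 5.94 ± 0.586 in ATG-GGC100, 7.05 ± 0.356 in TAG-GGC100 and 6.74 ± 0.0377 in ATG-GGC11. These calls were lost in 8 and 14 of 26 alternative fits, with adjusted p from 0.00648 to 0.169 and from 0.0214 to 0.145; the highest value with 1 library left out came without ATG-GGN100dCT replicate 4 (0.0876) for ATG-GGN100dCT and without ATG-GGC100 replicate 2 (0.145) for ATG-GGC100. The kinase Clk1 was at -0.20 (adjusted p = 0.463) and -0.08 (0.811). Of 52 proteins of the spliceosomal snRNPs, Sf3a1 was the only call, lower in ATG-GGC100 against TAG-GGC100 (-0.21 ± 0.06, adjusted p = 0.0467, lost in 18 of 26 fits with a range of 0.0173 to 0.151); their median log2 fold change was 0 there, -0.06 in ATG-GGN100dCT against TAG-GGC100 and 0.03 in TAG-GGC100 against ATG-GGC11.

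Of 28 other hnRNP and SR-like genes, Acin1 (log2 fold change -0.37 ± 0.09 SE, adjusted p = 0.0158) and Luc7l (-0.20 ± 0.06, adjusted p = 0.0425) were called lower in ATG-GGC100 against TAG-GGC100, and Luc7l2 was called higher in ATG-GGN100dCT against TAG-GGC100 (0.27 ± 0.06, adjusted p = 0.0143). Of all genes tested, 3.39% were called lower in the first of these comparisons and 4.3% higher in the second. The Acin1 call was lost without ATG-GGC100 replicate 2 (adjusted p = 0.0595; range 0.00147 to 0.0595), that of Luc7l in 16 of 26 fits (up to 0.141, without the same library), and that of Luc7l2 without TAG-GGC100 replicate 4 and ATG-GGN100dCT replicate 3 together (0.0919; range 0.00183 to 0.0919). Ptbp1 and Ptbp2, which encode the polypyrimidine tract proteins that switch during neuronal maturation, were at 0.26 (adjusted p = 0.0842) and 0.09 (0.355) in ATG-GGC100 against TAG-GGC100. Of 33 tissue-biased splicing regulators tested, 4 were called lower in ATG-GGC100 against TAG-GGC100, where 3.39% of all genes were, namely the neuronal Elavl2 (-0.36 ± 0.08, adjusted p = 0.0128), Elavl4 and Elavl3, and Rbm10. In ATG-GGN100dCT, 3 of them were called lower, where 4.4% of all genes were, namely Rbm24 (-0.66 ± 0.16, adjusted p = 0.0185), Elavl4 and Rbm10. The Elavl2 call held in all 26 fits. In ATG-GGC100 that of Elavl3 was lost in 16 of 26 (adjusted p range 0.00412 to 0.141) and that of Elavl4 in 10 (range 0.00945 to 0.105), both highest without ATG-GGC100 replicate 2, and that of Rbm10 without the same library (0.0606; range 0.00241 to 0.0606). In ATG-GGN100dCT that of Elavl4 was lost without TAG-GGC100 replicate 4 (0.0515; range 0.00176 to 0.0935), and that of Rbm24 was lost without ATG-GGN100dCT replicate 4 (adjusted p = 0.0612) or TAG-GGC100 replicate 4 (0.0547; range 0.00178 to 0.0766). Among nonsense-mediated decay factors, Smg1 was lower in ATG-GGC100 against TAG-GGC100 (-0.37 ± 0.1, adjusted p = 0.0241, lost in 8 and highest at 0.0897 without TAG-GGC100 replicate 2).

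Among TDP-43 and paraspeckle genes, Sfpq, a paraspeckle protein with splicing roles, was lower against TAG-GGC100 in ATG-GGC100 (log2 fold change -0.36 ± 0.09 SE, adjusted p = 0.0208) and in ATG-GGN100dCT (-0.30 ± 0.09, adjusted p = 0.0471, lost in 16 of 26 fits with a range of 0.0182 to 0.282). The ATG-GGC100 call was lost in 3 fits, among them those without ATG-GGC100 replicate 2 (0.0741) and without TAG-GGC100 replicate 4 (0.0605; range 0.00399 to 0.0741). The paraspeckle RNA Neat1 was higher in ATG-GGC100 against TAG-GGC100 (0.92 ± 0.21, adjusted p = 0.0194), a call lost without ATG-GGC100 replicate 2 (0.0592) or 3 (0.0601) or TAG-GGC100 replicate 2 (0.0719; range 0.000752 to 0.0719). Tardbp, which encodes TDP-43, was at -0.03 (adjusted p = 0.77), Matr3 at -0.07 (0.503) and Nono at 0.07 (0.501) in that comparison.

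Cirbp and Rbm3, RNA-binding proteins that are induced by cold, were highest in the long ATG constructs by group mean, as Hnrnpdl was. Cirbp had 19.9, 24.9, 26.6 and 29.5 FPKM in ATG-GGN100dCT and 22.8, 34.7, 22.2 and 19.0 FPKM in ATG-GGC100. It had 20.6, 12, 12.3 and 13.5 FPKM in TAG-GGC100 and 18.9, 18.7, 18.7 and 16.5 FPKM in ATG-GGC11. In each of the 4 groups the library with the highest Cirbp was also the one with the highest Hnrnpdl, a likeness that was noticed after the values were seen; its part in the result was not tested. Cirbp was called higher against TAG-GGC100 in ATG-GGC100 (log2 fold change 0.72 ± 0.19 SE, adjusted p = 0.0369, lost in 10 of 26 alternative fits) and in ATG-GGN100dCT (0.75 ± 0.19, adjusted p = 0.0297, lost in 9), with ranges of 0.00183 to 0.121 and 0.00112 to 0.186. The single libraries without which either call was lost were ATG-GGC100 replicates 1, 2 and 3 (adjusted p = 0.0552, 0.0971 and 0.0619 in ATG-GGC100), ATG-GGN100dCT replicates 3 and 4 (0.0843 and 0.092 in ATG-GGN100dCT) and TAG-GGC100 replicates 2, 3 and 4 (0.121, 0.0923 and 0.0915 in ATG-GGC100, and 0.0901, 0.0659 and 0.089 in ATG-GGN100dCT). Rbm3 was called higher in ATG-GGN100dCT against TAG-GGC100 (0.45 ± 0.11, adjusted p = 0.0164), a call lost without TAG-GGC100 replicate 2 (0.0631) or replicate 4 (0.0577; range 0.000347 to 0.0766). In ATG-GGC100 it was at 0.21 (adjusted p = 0.246).

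**Figure D5:**
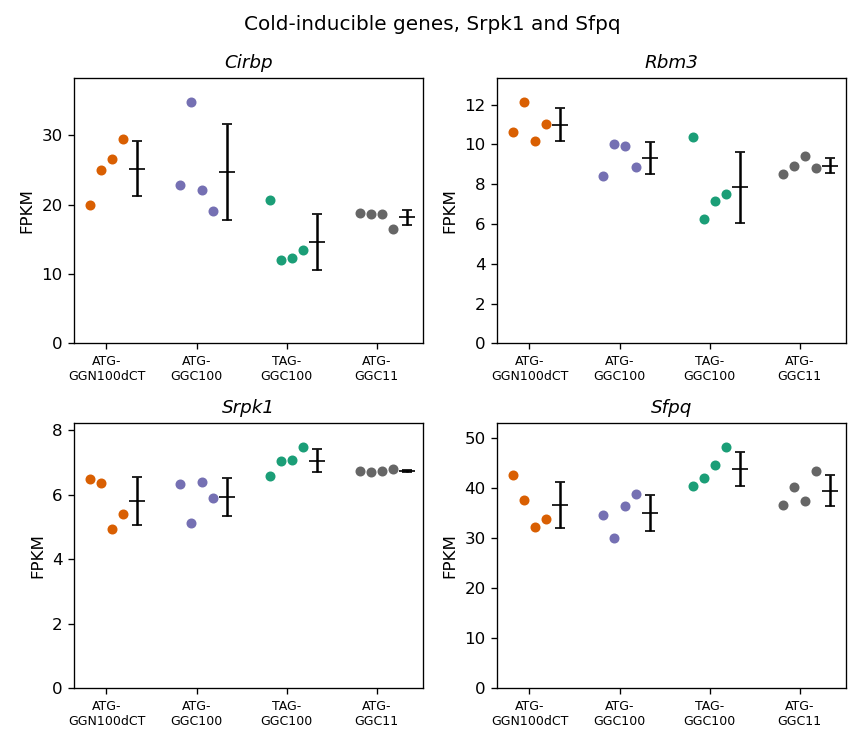
FPKM of Cirbp, Rbm3, Srpk1 and Sfpq in every library; each point is a library, the bar is the group mean with 1 SD, and the vertical axes start at 0. Cirbp averages 14.6 FPKM in TAG-GGC100 with replicate 1 apart at 20.6, and Srpk1 and Sfpq are highest in that group at means of 7.05 and 43.8.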

How the data were processed

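Cortical RNA of mice given AAV was sequenced in 16 libraries, 4 per construct. Per the labels' protocols, poly(A) RNA was selected with oligo(dT) beads, fragmented and copied with random primers before PCR; strand marking is not mentioned. The submitters' processing notes list cutadapt 1.9.1, FastQC 0.10.1, mm10 and GRCm39. Which aligner, counting tool and annotation were used is not given in the sources used here.

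Per the file headers, the deposited table holds the authors' raw counts per gene and library, their FPKM values and the exonic length in bases. FPKM recomputed from the deposited counts, lengths and totals matched within 0.005. The table names no build; of 52083 identifiers shared with a GRCm38 annotation, 2.88% had the same start (1 of the 31 members), so its coordinates were not mixed with those of the promoters. The promoters come from RefSeq on GRCm38.p6.

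Groups follow the construct code in each title and the key in the design text. Genes were kept by filterByExpr (minimum count 10), given TMM factors, and tested two-sided with the quasi-likelihood functions of edgeR 4.0.16 (robust glmQLFit, glmQLFTest; R 4.3.3) in 1 model of all 16 libraries with group as the only term. P-values were adjusted by Benjamini-Hochberg over 17737 genes within each of 8 comparisons, with a threshold of 0.05; the common biological coefficient of variation was 0.112. With 4 libraries a group, the smallest count of a member in a library was 232. Intervals are at 95%. Levels are mean FPKM ± SD, and fold changes are log2 ± SE.

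The members and gene lists were chosen with earlier results of these data known. Values per library are given for members called in any comparison and, where none was called, for the 2 with the lowest p; from each other list up to 4 called genes per comparison, and a fixed set of repeat-binding, splicing and cold-inducible genes, may be named; some genes of these lists are not reported here. The alternatives were median-ratio scaling, library totals, other filters (none, or at least 10 counts in 4 libraries), limma 3.58.1 on log2(FPKM + 1) and log2(FPKM + 0.1), DESeq2 1.42.0, only the groups compared, the replicate number as a block, and each library left out. Leaving out TAG-GGC100 replicate 4 and ATG-GGN100dCT replicate 3 together was added after the data were seen. The counts of 2 libraries of the same group differed beyond sampling noise in all 24 pairs (chi-square over its degrees of freedom, 4.67 to 22.1), so each library was counted once.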

Additional observations from a re-analysis of the deposited data

Results flagged for a closer look

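In 5 of 124 gene and group combinations, the highest or lowest of the 4 libraries stood apart from the other 3 by more than Dixon's critical value at 95%; chance alone gives about 1 in 20. Hnrnpab had 54.75 FPKM in ATG-GGC100 replicate 3, against 50.51 to 51.18 in the other ATG-GGC100 libraries. Hnrnph2 had 39.45 FPKM in ATG-GGN100dCT replicate 3, against 36.18 to 36.26 in the rest of its group. Hnrnpul2 had 40.67 FPKM in TAG-GGC100 replicate 1, against 43.1 to 43.49. Srsf1 had 43.57 FPKM in TAG-GGC100 replicate 4, against 37.6 to 38.42. Srsf6 had 28.25 FPKM in ATG-GGC11 replicate 2, against 29.52 to 29.72. None of these 5 genes was called in any of the 8 comparisons.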

How the results depend on the processing

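No tracked fold change reversed its sign in any alternative. The counts of called members moved as follows. In ATG-GGC100 against ATG-GGC11, 0 became 1 (Hnrnpdl) with library totals, with limma at either pseudocount, in the fit of only the groups compared and with DESeq2. In ATG-GGC100 against TAG-GGC100, 3 became 5 with library totals and 1 with limma on log2(FPKM + 0.1). Limma on log2(FPKM + 1) also lost the call of Srsf7 there. In ATG-GGN100dCT against TAG-GGC100, 5 became 3 with library totals, with limma at either pseudocount and with only the groups compared. In TAG-GGC100 against the mean of the other 3 groups, 3 became 1 (Hnrnpdl) with limma at either pseudocount. Without both TAG-GGC100 replicate 4 and ATG-GGN100dCT replicate 3, the counts were 1 (Srsf3) in ATG-GGN100dCT against ATG-GGC11, 1 (Srsf7) in ATG-GGN100dCT against TAG-GGC100 and 0 in TAG-GGC100 against the others. Leaving out each library in turn gave 0 to 3 calls in ATG-GGN100dCT against ATG-GGC11, 1 to 3 in ATG-GGC100 against TAG-GGC100, 2 to 7 in ATG-GGN100dCT against TAG-GGC100, 0 to 3 in TAG-GGC100 against the others, and 0 in the other 4 comparisons. The cause of these changes was not tested, beyond the smaller number of libraries where some were left out. With library totals the median of all genes moved by at most 0.05 on the log2 scale.

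With the replicate number as a block, the call of Srsf3 in ATG-GGN100dCT against ATG-GGC11 was lost (adjusted p = 0.05, range over settings 0.0119 to 0.0768), which took that count from 2 to 1 (Srsf7), and that of Hnrnpa2b1 in ATG-GGN100dCT against TAG-GGC100 (0.0549, range 0.0106 to 0.235). The numbers were not used for pairing: same-numbered libraries of different groups had residual correlations of -0.198 to 0.179, with a median of -0.031, and 3 of 24 were over 0.1. With 4 libraries a group, all member calls but those of Hnrnpdl in ATG-GGC100 and Srsf7 in ATG-GGN100dCT against TAG-GGC100 were lost in at least 1 alternative; counts per gene show neither isoforms nor protein.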

Other observations

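Other splicing-related genes were called in comparisons not described above. Against ATG-GGC11, 1 of 33 tissue-biased regulators was called lower in ATG-GGC100 and 3 in ATG-GGN100dCT (Elavl2, Rbm24 and Khdrbs1), where 1.3% and 3.49% of all genes were. Malat1 was the only call among 11 TDP-43 and paraspeckle genes in ATG-GGN100dCT, where 3.17% of all genes were called higher. Srrm2 was 1 of 28 genes in its list, in a comparison where 0.857% of all genes were called higher. Elavl2, which encodes a neuronal RNA-binding protein, was lower in ATG-GGC100 (log2 fold change -0.39 ± 0.08 SE, edgeR adjusted p = 0.0114, lost in 2 of 26 alternative fits, without ATG-GGC100 replicate 3 at 0.0507 and without ATG-GGC11 replicate 2 at 0.0547) and in ATG-GGN100dCT (-0.29 ± 0.08, adjusted p = 0.0434, lost in 11, up to 0.136 without ATG-GGC11 replicate 2) against ATG-GGC11. It averaged 9.09 ± 0.577 FPKM in ATG-GGN100dCT, 8.48 ± 0.913 in ATG-GGC100, 10.6 ± 0.728 in TAG-GGC100 and 10.8 ± 1.03 in ATG-GGC11 (SD, n = 4 each). Rbm24, a splicing regulator known from muscle, was lower in ATG-GGN100dCT against ATG-GGC11 (-0.65 ± 0.16, adjusted p = 0.0237, lost in 4, among them without ATG-GGN100dCT replicate 4 at 0.0751, ATG-GGC11 replicate 2 at 0.0727 and ATG-GGC11 replicate 4 at 0.0568). The nuclear RNA Malat1 was higher there (0.71 ± 0.2, adjusted p = 0.0481, lost in 13, up to 0.126), with 214.81, 146.92, 177.44 and 177.81 FPKM in ATG-GGN100dCT and 128.74, 86.17, 101.5 and 108.74 FPKM in ATG-GGC11. Srrm2, a large scaffold protein of nuclear speckles, was the only other hnRNP or SR-like gene of the list called in ATG-GGN100dCT against ATG-GGC100 (0.41 ± 0.09, adjusted p = 0.0196, lost without ATG-GGN100dCT replicate 1 at 0.058 and ATG-GGC100 replicates 1 and 3 at 0.0738 and 0.0806), at 52.9 ± 1.38 FPKM in ATG-GGN100dCT and 39.9 ± 5.08 FPKM in ATG-GGC100.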
